A study of Mus musculus with 3 samples.

Results

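The transcripts described here are those of the islet hormones that beta cells are not known for, Gcg, Sst, Ppy and Pyy, together with Ttr, a carrier protein gene that is strongly expressed in alpha cells. They were chosen by name, and all 5 were found among the 8237 genes that the deposited tables list. All 5 are in the beta-cell table, 2 in the alpha-cell table (Sst and Ppy) and 2 in the delta-cell table (Gcg and Ttr). A table lists only genes that the authors had called different between the genotypes in those cells, so a listed gene had to differ in some way. Gcg and Ttr in alpha cells and Sst in delta cells, which would be the levels in the hormones' own cells, were not analysed here, nor was Pyy outside beta cells or Ppy in delta cells.

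The animals were NOD/ShiLtJ mice, a strain that develops autoimmune diabetes, and all were 5 weeks old. The KO group held 2 mice with the genotype IRE1[alpha][beta]-/-, a beta-cell knockout of the endoplasmic reticulum stress sensor IRE1α, and the control group 1 mouse with the genotype IRE1[alpha]fl/fl. Both groups received intraperitoneal tamoxifen at 10 mg per ml to activate Cre recombinase. The sources used here give neither the promoter that drives Cre nor whether the control carried it. Islets were hand-picked, cultured overnight, dissociated and run on the 10X Genomics platform, where a unique molecular identifier (UMI) stands for 1 captured transcript.

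Islet endocrine cells are usually told apart by the hormone they make. Alpha cells make glucagon from Gcg, which raises blood glucose. Delta cells make somatostatin from Sst, which restrains insulin and glucagon release, and PP cells make pancreatic polypeptide from Ppy. Pyy encodes peptide YY, a relative of pancreatic polypeptide in the neuropeptide Y family, and is known in mouse islets from alpha, PP and some delta cells. In droplet data a hormone UMI can also come from free RNA or from a droplet that held more than 1 cell.

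Ppy and Pyy are neighbours. On mm10, Ppy (ENSMUSG00000017316) lies at chr11:102099930-102101319 and Pyy (ENSMUSG00000017311) at chr11:102106676-102107832, both on the minus strand, with 5356 bases and no other annotated gene between them. Gcg (ENSMUSG00000000394) lies at chr2:62474530-62483650 and Sst (ENSMUSG00000004366) at chr16:23889573-23890958, also on the minus strand. Ttr is ENSMUSG00000061808. The longest stretch shared by any transcript of Ppy with any of Pyy was 10 bases, so the neighbours share no long sequence. Among all pairs of the 5 genes it was at most 12 bases.

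The 250 bases before the start of 4 of these genes in RefSeq (GRCm38.p6, the mm10 build) are shown because the genes were higher together in KO beta cells and 2 of them are adjacent. The window of Sst overlaps the first bases of its longer GENCODE model. They read 5′ to 3′ on the gene's own strand, at chr2:62483654-62483903 for Gcg, chr16:23890845-23891094 for Sst, chr11:102101320-102101569 for Ppy and chr11:102107833-102108082 for Pyy. Capitals mark the motifs searched on both strands, TATAAA (found in many core promoters), TGACGTCA (the cyclic AMP response element) and TAAT (the core bound by homeodomain factors), and no match overlapped another.
Gcg: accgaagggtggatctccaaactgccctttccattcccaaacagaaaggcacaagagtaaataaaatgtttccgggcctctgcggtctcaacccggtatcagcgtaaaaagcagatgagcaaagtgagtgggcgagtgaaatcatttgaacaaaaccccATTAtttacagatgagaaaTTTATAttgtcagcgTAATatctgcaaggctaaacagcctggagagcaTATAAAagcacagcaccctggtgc
Sst: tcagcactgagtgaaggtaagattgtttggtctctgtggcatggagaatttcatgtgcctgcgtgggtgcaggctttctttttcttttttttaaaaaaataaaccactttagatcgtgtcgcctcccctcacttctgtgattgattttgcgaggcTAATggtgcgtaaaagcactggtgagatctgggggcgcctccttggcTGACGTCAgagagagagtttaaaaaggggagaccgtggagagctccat
Ppy: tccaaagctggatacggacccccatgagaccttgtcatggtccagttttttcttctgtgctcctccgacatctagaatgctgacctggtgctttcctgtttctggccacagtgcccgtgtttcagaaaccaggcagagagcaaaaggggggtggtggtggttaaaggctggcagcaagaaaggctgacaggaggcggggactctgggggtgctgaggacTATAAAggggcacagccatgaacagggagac
Pyy: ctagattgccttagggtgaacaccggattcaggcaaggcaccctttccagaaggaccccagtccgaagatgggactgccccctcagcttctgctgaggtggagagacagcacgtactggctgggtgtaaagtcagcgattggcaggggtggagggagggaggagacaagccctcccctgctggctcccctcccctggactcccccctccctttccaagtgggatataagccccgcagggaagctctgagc
TATAAA was found 24 bases before the start of Gcg and, on the opposite strand, 72 bases before it. It was also found 31 bases before the start of Ppy, and it is held by 12.4% of 32851 such windows of all genes. TGACGTCA was found 48 bases before the start of Sst and is held by 1.55% of windows. TAAT stood in the windows of Gcg and Sst and in 54.9% of all windows. None of the 3 was found in the window of Pyy. A match describes these letters and not a bound site.

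For each cell type the values are mean UMIs per cell, not scaled for depth. A ratio is KO over control, and brackets hold its exact 95% interval, which covers counting error only. The beta-cell means came from 815 KO cells, pooled over both mice, and 829 control cells. Alpha cells numbered 304 and 177 in the KO columns and 142 in the control, and delta cells 138 and 78 in the KO columns and 101 in the control. Listed genes summed to 24796 UMIs per KO beta cell and 31552 per control beta cell. With 1 control mouse, and with the KO mice pooled in beta cells, no difference in beta cells had a check against the spread between mice.

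In beta cells all 5 transcripts were higher in the KO. The ratio was largest for Ppy and Pyy, intermediate for Gcg and Ttr, and smallest for Sst. All 5 passed a fold of 1.5 upward, as did 45.7% of the 8193 listed genes, against 2.47% that passed it downward, so most listed genes that passed it did so upward. A fold of 2 was passed by 4 of the 5, all but Sst, and by 19.8% of the listed genes.

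Ppy had 65.3 UMIs per KO cell, against 8.88 per control cell, a ratio of 7.36 [7.18 to 7.54]. It had the lowest p-value of all genes in the authors' deposited table, 1.49e-207, a value computed from cells and not from mice. Its neighbour Pyy had 41.6 UMIs per KO cell, against 12.8 per control cell, a ratio of 3.25 [3.18 to 3.32]. The neighbours differed in the size of their ratio, and the number of Ppy UMIs for each Pyy UMI was 1.57 [1.55 to 1.59] in KO and 0.692 [0.672 to 0.713] in control beta cells.

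Gcg had 100.4 UMIs per KO cell, against 43.6 per control cell, a ratio of 2.30 [2.28 to 2.33]. Ttr had 12.0 UMIs per KO cell, against 5.16 per control cell, a ratio of 2.33 [2.25 to 2.42]. The intervals of this pair, both abundant in alpha cells, overlapped. There were 8.35 [8.18 to 8.53] Gcg UMIs for each Ttr UMI in KO beta cells and 8.45 [8.19 to 8.72] in control beta cells.

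Sst had 59.1 UMIs per KO cell, against 36.7 per control cell, a ratio of 1.61 [1.59 to 1.63]. That is 1.11 times the median ratio of all listed genes, which was 1.45. Gcg and Ttr stood at 1.58 and 1.60 times this median, Pyy at 2.23 and Ppy at 5.06 times. In KO minus control UMIs per cell the order was another, with Gcg at 56.9, Ppy at 56.5, Pyy at 28.8, Sst at 22.4 and Ttr at 6.87.

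**Figure D1:**
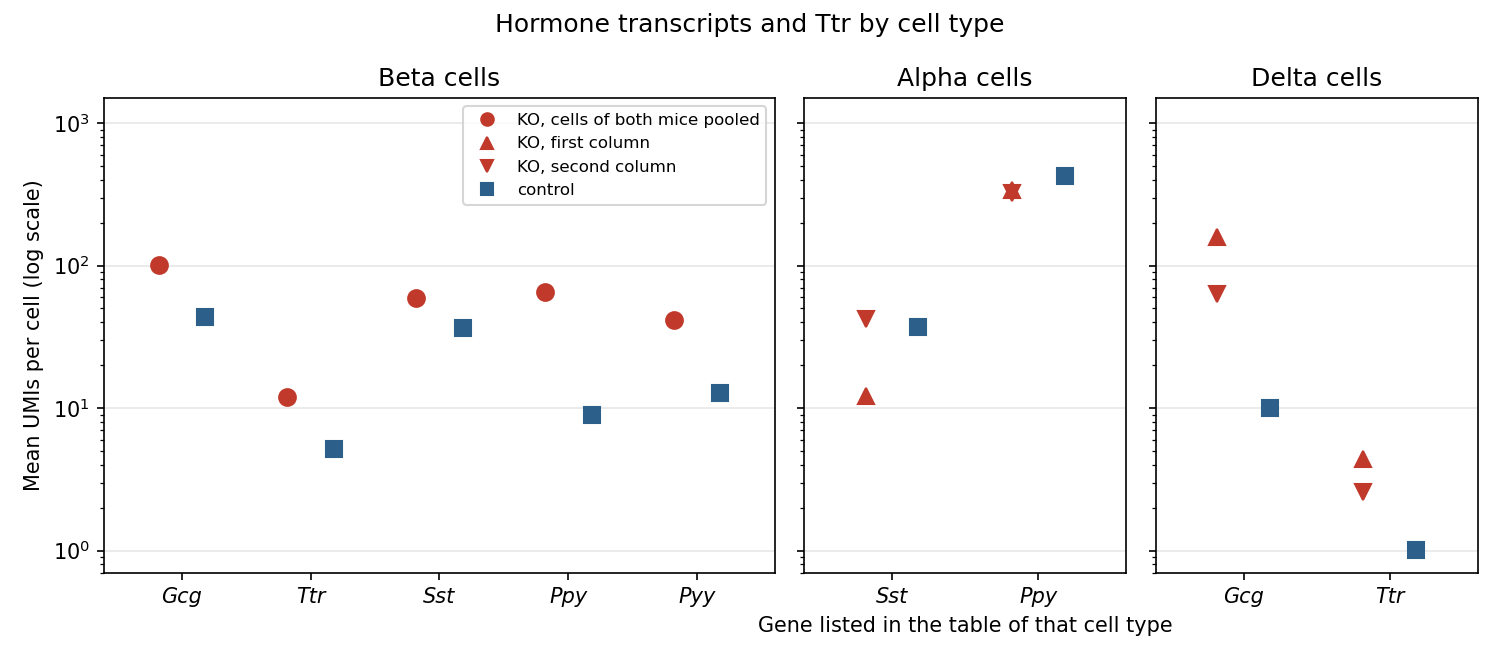
Mean UMIs per cell (log scale) of each gene in each cell type whose table lists it. Red symbols are KO values (circles, both mice pooled; triangles, the 2 KO columns) and blue squares the control. In beta cells all 5 red circles lie above their squares; in alpha cells the KO columns of Sst lie on both sides of the control at 36.8 UMIs per cell; in delta cells both KO columns of Gcg and Ttr lie above it.

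By ratio, 4 of the 5 came first among genes above a control level that was fitted to them. There were 293 genes with at least 5 UMIs per control beta cell, a minimum set after the values were seen so that all 5 genes passed it. Of these, 11.6% passed a fold of 1.5 upward, and their median ratio was 1.12. Ppy, Pyy, Ttr and Gcg ranked 1, 2, 3 and 4 by ratio among them, just ahead of the actin gene Actb at 2.28, and Sst ranked 23. This minimum leaves out genes that were below it in control cells but abundant in KO cells. Gpx3, for example, had 2.13 UMIs per control cell and 13.9 per KO cell, a ratio of 6.52. Among all 8193 genes, where rare transcripts reach larger ratios, the ranks were 116 for Ppy, 560 for Pyy, 1163 for Ttr, 1186 for Gcg and 2956 for Sst.

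**Figure D2:**
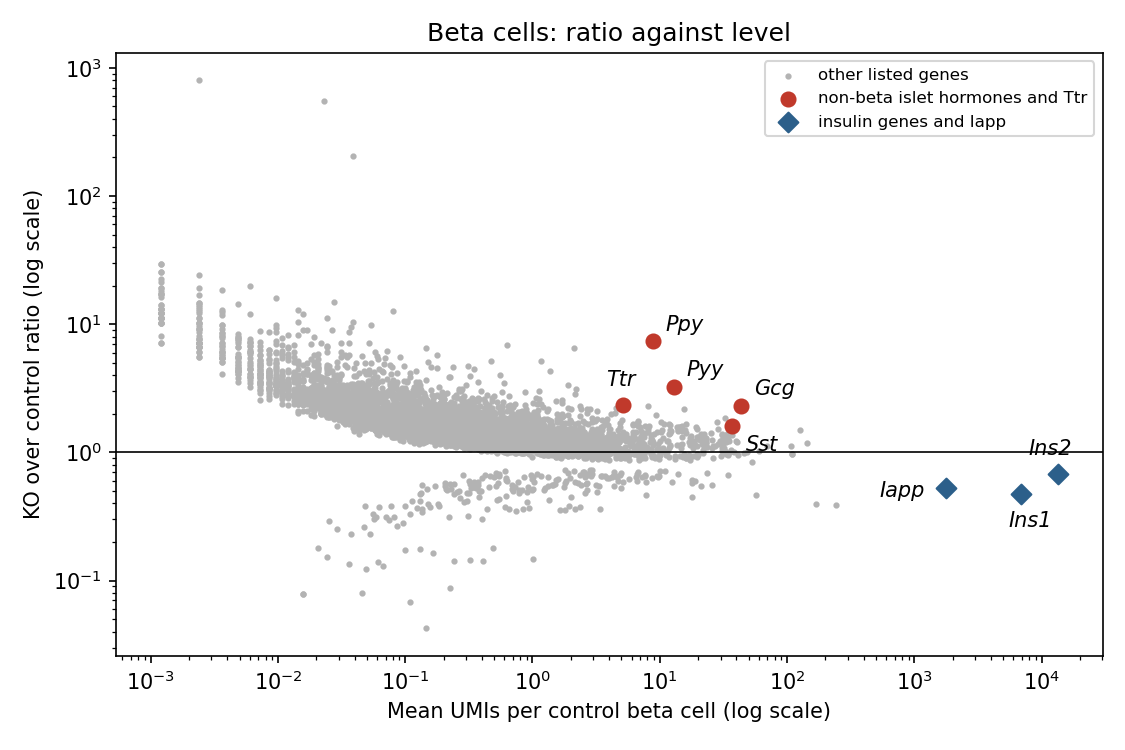
KO over control ratio against the mean UMIs per control beta cell, both on log scales, for the 8090 of 8193 listed genes that had UMIs in both groups. Red circles are the hormones and Ttr, blue diamonds Ins1, Ins2 and Iapp; grey points are all other genes. Ppy, at 7.36, has the highest ratio of the genes with at least 5 UMIs per control cell, a minimum set after the values were seen. Among all 8193 listed genes it ranks 116. The insulin genes and Iapp lie below 1.

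The 5 transcripts together made 278 UMIs per KO beta cell and 107 per control beta cell, which is 1.12% and 0.339% of the listed UMIs. Ins1, Ins2 and Iapp together, the insulin genes and amylin, made 13362 UMIs per KO cell and 22054 per control cell. The difference of the 5 transcripts, 171 UMIs per cell, was small beside that of Ins1, Ins2 and Iapp, -8692 UMIs per cell. By level, Gcg was in place 9, Ppy in place 13 and Sst in place 16 among the listed genes of KO beta cells, and Gcg in place 17, Ppy in place 175 and Sst in place 23 in control beta cells.

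How large these ratios are depended on the scale. Scaled to the listed total, Ppy was at 9.36, Pyy at 4.13, Ttr at 2.97, Gcg at 2.93 and Sst at 2.05. Scaled to the listed total without the insulin genes, Iapp and the 5 transcripts, Ppy was at 6.19, Pyy at 2.73, Ttr at 1.96, Gcg at 1.94 and Sst at 1.36. All 5 stayed above 1 under each of these scales and relative to the median gene, while Sst was under the fold of 1.5 on the scale without islet hormones and relative to the median gene. Of all listed beta-cell genes, 95.0% were higher as deposited, 97.2% when scaled to the listed total and 82.2% when the hormones were left out of that total. Relative to the median gene the split is even by construction.

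**Figure D3:**
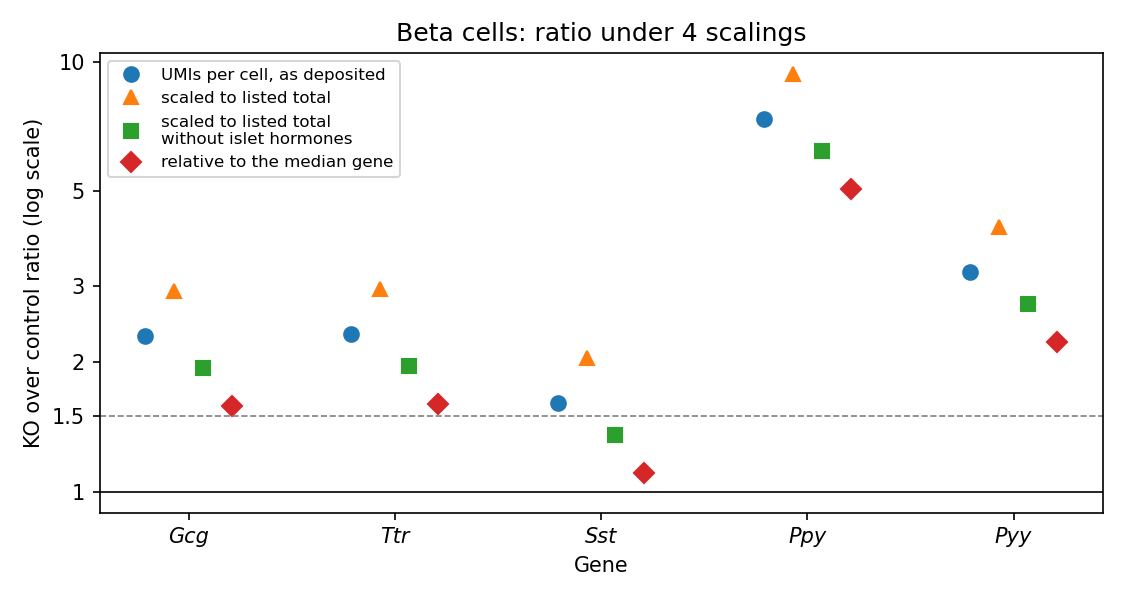
KO over control ratio (log scale) of each gene in beta cells under 4 scalings: as deposited (circles), scaled to the listed total (triangles), scaled to it without islet hormones (squares) and relative to the median of all listed genes (diamonds). The solid line is no difference and the dashed line a fold of 1.5; Sst reaches 1.11 relative to the median gene, and Ppy stays at 5.06.

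More alpha cells stood beside the beta cells in the KO tables. Alpha cells were 31.8% [29.5% to 34.2%] of the beta, alpha and delta cells in the pooled KO and 13.2% [11.3% to 15.4%] in the control (Clopper-Pearson intervals). Delta cells were 14.3% [12.6% to 16.2%] in the KO and 9.42% [7.74% to 11.3%] in the control. The intervals count cells and do not cover the spread between mice, and the control was 1 mouse. The part of these shares, of free RNA and of doublets in the hormone levels was not tested. The tables hold means, so whether a few cells carried many hormone UMIs or many cells a few cannot be told apart, and cell barcodes shared between libraries could not be counted.

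In alpha cells the listed hormones were lower in the unweighted mean of the KO mice, and neither passed a fold of 1.5 or the count test. With the mean weighted by cells, as in the pooled beta-cell values, Sst was at 0.627, past the fold downward, and Ppy at 0.783. Of all 186 listed genes 10.8% passed the fold upward and 30.1% downward. Ppy was the most abundant listed transcript there. PP cells were not given as a separate cell type, and whether the alpha cells included PP cells was not tested. Ppy had 341 and 323 UMIs per cell in the KO mice, against 427 in the control, ratios of 0.799 [0.791 to 0.807] and 0.756 [0.747 to 0.764]. Both KO columns lay below the control, as they did for 51.1% of the listed genes, and they differed by 5.63% of their mean. The ratio of the KO mean was 0.777, and 0.953 relative to the median of all listed alpha-cell genes.

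Sst in alpha cells did not have 1 direction. It had 12.1 and 42.0 UMIs per cell in the KO mice, against 36.8 in the control, ratios of 0.327 [0.314 to 0.342] and 1.14 [1.10 to 1.18]. The KO columns lay on both sides of the control, as for 11.8% of the listed genes, and differed from each other 3.49-fold. Of the 2 KO columns the first, low in Sst, was also the lower in Ins1, with 36.0 and 83.1 UMIs per alpha cell in the KO mice against 93.6 in the control. Iapp was lower in the first column too, at 54.7 and 69.6 UMIs. Ins2, at 160 and 151 UMIs, and Ppy were instead higher in the first column.

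Over the 3 mice, edgeR's quasi-likelihood test gave Sst in alpha cells a log2 fold of -0.45 at an adjusted p of 0.57, and Ppy a log2 fold of -0.36 at an adjusted p of 0.632. It called 0 genes higher and 4 lower (2.15%) of the 186, and 5 higher and 47 lower at an unadjusted p under 0.05. DESeq2 called 0 higher and 1 lower, and 18 higher and 6 lower at an unadjusted p under 0.05. An exact permutation test of 2 mice against 1 cannot give a p below 0.333.

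In delta cells both listed transcripts, Gcg and Ttr, were higher in each KO mouse, and Gcg ranked second by ratio among 231 listed genes. Gcg had 159 and 63.5 UMIs per cell in the KO mice, against 10.0 in the control, ratios of 15.9 [14.9 to 17.0] and 6.35 [5.93 to 6.80]. The KO columns differed 2.51-fold from each other, and both lay far above the control. The ratio of the KO mean was 11.1, and by level Gcg was in place 2 in KO delta cells and in place 61 in control delta cells.

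Ttr had 4.36 and 2.58 UMIs per cell in the KO mice, against 1.01 in the control, ratios of 4.32 [3.50 to 5.38] and 2.55 [2.00 to 3.27]. The first KO column was again the higher, 1.69-fold over the second. Both genes passed the fold of 1.5 in the mean of the KO mice, as did 41.1% of the listed genes upward and 16.0% downward, and a fold of 2, as did 19.9% upward. They passed the fold of 1.5 in each KO column, as did 27.3%, and 71.4% of the listed genes had both KO columns above the control. Upward genes were 81.4% of the delta-cell table as deposited and 70.6% on the scale without islet hormones. The proportion of Gcg to Ttr was higher in both KO columns than in the 1 control here. There were 36.5 [33.6 to 39.6] and 24.6 [21.4 to 28.5] Gcg UMIs for each Ttr UMI in delta cells of the KO mice and 9.90 [8.07 to 12.3] in control delta cells. The KO columns also differed from each other, and the intervals cover counting error only, not the spread between mice.

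edgeR's quasi-likelihood test gave Gcg in delta cells a log2 fold of 3.48 at an adjusted p of 1.13e-14 and Ttr a log2 fold of 1.79 at an adjusted p of 1.14e-05, each higher in 2 of 2 KO mice. It called 28 genes higher (12.1%) and 22 lower (9.52%) of the 231. DESeq2 gave both genes an adjusted p of 0.0186. The single control is assumed to vary like the KO mice in these fits, and the authors had already selected the genes on the same cells, so these p-values are too small.

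**Figure D4:**
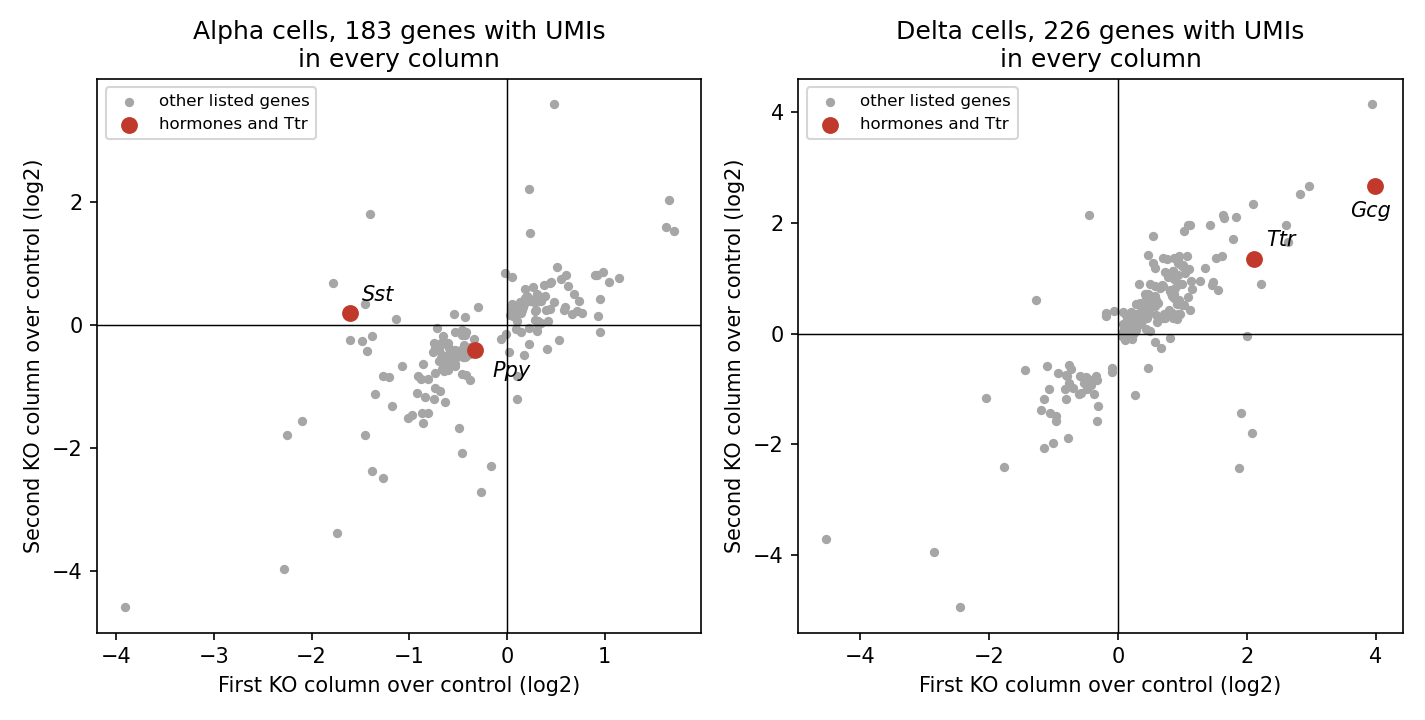
Log2 ratio over the control of the first KO column (horizontal) and the second (vertical), for the 183 alpha-cell and 226 delta-cell genes with UMIs in every column. Red points are the hormones and Ttr, grey points all other listed genes. Gcg and Ttr lie in the upper right of the delta-cell panel, Ppy in the lower left of the alpha-cell panel, and Sst is low in the first column only.

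The other alpha-cell transcript listed in delta cells went the other way. Of 12 alpha-cell markers, Gc, the vitamin D binding protein gene, was the 1 that the delta-cell table lists. It had 1.41 and 1.37 UMIs per cell in the KO mice, against 3.12 in the control, ratios of 0.451 [0.375 to 0.541] and 0.440 [0.350 to 0.549]. Alpha cells were 68.8% [64.2% to 73.1%] and 69.4% [63.4% to 75.0%] of the alpha and delta cells in the KO columns and 58.4% [52.0% to 64.7%] in the control. These intervals also count cells and do not cover the spread between mice. The part of the alpha-cell share in the Gcg level was not tested. Rbp4, a retinol carrier gene abundant in delta cells, had 84.2 and 69.1 UMIs per delta cell in the KO mice, against 137 in the control.

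The levels of the transcripts were also set side by side across cell types. The tables were made separately, and UMIs per cell also vary with the depth of each cell type. Ppy was higher in alpha than in beta cells in both genotypes, and its beta-cell level was 19.7% of that in alpha cells in the KO and 2.08% in the control. The part of PP cells that may be among the alpha cells was not tested. Gcg was at 111 ± 67.6 UMIs in delta cells (SD, n = 2) and 100.4 in beta cells of the KO, levels within the spread of the KO mice. In the control it was 4.36 times [4.09 to 4.64] as high in beta as in delta cells. Ttr was at 12.0 in beta cells and 3.47 ± 1.26 in delta cells of the KO (SD, n = 2), and in the control 5.11 times [4.20 to 6.28] as high in beta as in delta cells.

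Sst was at 59.1 UMIs in beta cells and 27.0 ± 21.2 in alpha cells of the KO (SD, n = 2). In the control the levels differed by less than counting error, 36.7 in beta and 36.8 in alpha cells, at a ratio of 0.996 [0.967 to 1.03]. For beta-cell transcripts in alpha cells, KO alpha cells held 1.70% and control alpha cells 1.60% of the Ins2 level of beta cells of the same genotype. For Ins1 the shares were 1.82% in KO and 1.36% in control alpha cells. The KO share of Ins1 is from the mean of unlike columns, 36.0 and 83.1 UMIs per alpha cell. For Iapp the direction was the other, 6.65% in KO and 7.06% in control alpha cells.

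Of all listed beta-cell genes 95.0% were higher, so that nearly any listed marker would be, and the counts of higher markers are read against that share. The listed markers of the cells that make these hormones were at far lower levels than the hormones. All 4 listed of 12 alpha-cell markers were higher, with a median log2 ratio of 1.64 beside 0.54 for all listed genes, and a summed level of 1.42 UMIs per KO cell and 0.590 per control cell. Irx2, an alpha-cell transcription factor gene, was at 6.71 [4.18 to 11.3], the amino acid transporter gene Slc38a5 at 3.83 [2.75 to 5.42], the chromatin remodeller gene Smarca1 at 2.53 [1.82 to 3.58] and Gc at 1.99 [1.75 to 2.26]. All 5 listed of 11 delta-cell markers were higher, beside the same 95.0% (median 1.01, summed 6.23 UMIs per KO cell and 3.36 per control cell). Among them were Hhex, a transcription factor of delta cells, at 2.01 [1.38 to 2.96] and Ffar4, a fatty acid receptor gene, at 3.46 [2.51 to 4.84]. Ptprz1 was at 2.87 and Rbp4 at 1.86. Relative to the median gene 4 of the 5 were higher. Of 5 PP and epsilon-cell markers 1 was listed, Etv1 at 5.64 [4.16 to 7.78], with 0.340 UMIs per KO cell and 0.0603 per control cell.

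Beta-cell markers went the other way in the same cells. All 6 listed of 9 were lower (median log2 ratio -1.0, summed 13364 UMIs per KO cell and 22059 per control cell), from the transcription factor gene Mafa at 0.364 [0.338 to 0.391] to Ins2 at 0.684 [0.683 to 0.685]. The glucose transporter gene Slc2a2 was at 0.439 and the urocortin gene Ucn3 at 0.557. Markers of other cell types were listed as well, and their counts too stand beside 95.0% of all listed genes higher. Red-cell globin transcripts, 3 listed of 5, summed to 22.6 UMIs per KO cell and 0.0639 per control cell (median 9.12). Globin genes have near-identical copies, so the split among Hba-a1, Hbb-bs and Hbb-bt is uncertain. Duct markers, 4 of 4 listed of 7 higher, summed to 71.6 per KO cell and 38.2 per control cell (median 1.04), from Muc1 at 4.16 and Krt8 at 2.31 to Spp1 at 1.84 and Krt7 at 1.83. Mesenchymal markers, 4 of 4 listed of 7 higher, summed to 0.117 per KO cell and 0.00844 per control cell (median 2.91 with bounds). Col3a1 was at 14.7 [3.73 to 128] and Col1a2 at 4.48 [1.65 to 15.1], while Col1a1 and Dcn had 0 UMIs in the control and were at least 12.5-fold and at least 2.37-fold higher, with the control group set to 3 UMIs. Immune markers were higher in 3 of 4 listed of 7 (median 1.22) and summed to 0.564 per KO cell and 0.641 per control cell, with Lyz2 at 10.2 [1.45 to 441], Cd79a at 2.76, Cd74 at 1.96 and Cd68 at 0.141. Endothelial markers were higher in 1 of 2 listed of 7 (median -1.32) and summed to 0.363 per KO cell and 0.192 per control cell. Pecam1 was at 2.06 and Cdh5 at 0.0782 [0.00184 to 0.521], the latter from 1 UMI in KO and 13 in control cells. None of 11 acinar markers was listed. The part of these cells in the hormone levels was not tested.

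In alpha cells none of the 12 alpha-cell markers was listed, so the cell type could not be checked against them. The 3 listed beta-cell markers of 9 were lower there (median log2 ratio -0.65), with Ins2 at 160 and 151 UMIs per cell in the KO mice against 214 in the control, and Iapp at 54.7 and 69.6 against 126. Of the 11 delta-cell markers Rbp4 was listed, with 7.43 and 9.90 UMIs per alpha cell in the KO mice, against 15.7 in the control. The duct marker Krt8 had 2.50 and 3.05 UMIs per alpha cell in the KO mice, against 3.42 in the control. In delta cells Iapp had 797 and 698 UMIs per cell in the KO mice, against 1825 in the control, and the duct marker Muc1 0.696 and 0.962 against 0.723. The control level of Iapp in delta cells was 1.02 times [1.02 to 1.03] that in beta cells, so Iapp was not particular to beta cells here. Of the marker lists used here, those of PP and epsilon, acinar, endothelial, immune, mesenchymal and red cells had no gene in either table. These lists are short, and genes outside them that immune cells express were listed. S100a9 had log2 ratios of -3.91 and -4.59 in alpha cells and C1qa of -0.32 and -1.59 in delta cells of the KO mice, both named after their values were seen.

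Other peptide hormones went both ways in beta cells. Of 12, 6 were listed, 4 of them higher and 2 lower, beside 95.0% of all listed genes higher (median log2 ratio 1.51). Cck, the cholecystokinin gene, had 0.413 UMIs per KO cell, against 0.0277 per control cell, and Gast, the gastrin gene, 0.258 against 0.0362. Cartpt had 0.150 UMIs per KO cell, against 1.01 per control cell. These levels lie far below those of the islet hormones, apart from Iapp, which had 935 UMIs per KO cell, against 1781 per control cell.

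Genes that process prohormones or fill secretory granules mostly had ratios near 1 in beta cells as deposited. Of 12 such genes 10 were listed in beta cells, 5 higher and 5 lower, beside 95.0% of all listed genes higher, with a median log2 ratio of 0.07. This direction depends on the scale, with 10 higher and 0 lower when scaled to the listed total, 4 and 6 without islet hormones in the total, and 2 and 8 relative to the median gene. The granins Chgb and Scg2 were highest at 1.67 [1.64 to 1.71] and 1.57 [1.54 to 1.60], and Scg5, the chaperone of the convertase PC2, and Pcsk1n, an inhibitor of the convertase PC1/3, lowest at 0.949 [0.933 to 0.965] and 0.947 [0.932 to 0.961]. In alpha cells 4 of 12 were listed and all were lower (median -0.46), or 3 of 4 relative to the median gene, where Scg5 was at 1.00. Chga had ratios of 0.633 and 0.884 in the KO mice over the control. Vgf had 3.52 and 2.69 UMIs per alpha cell in the KO mice, against 5.65 in the control, and Scg5 30.1 and 36.2 against 40.6. Resp18 had 42.3 and 46.1 UMIs per alpha cell in the KO mice, against 63.6 in the control. In delta cells 1 of 12, Pcsk1n, was listed, with 48.3 and 51.6 UMIs per cell in the KO mice, against 34.0 in the control.

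Among 15 islet transcription factors 8 were listed in beta cells, 7 higher and 1 lower (median log2 ratio 0.86), beside 95.0% of all listed genes higher. The split was 8 and 0 when scaled to the listed total and 6 and 2 without islet hormones in the total or relative to the median gene. Irx2, given above, ranked second among them. Fev, a factor of endocrine progenitors, was at 9.02 [5.79 to 14.7], while Neurod1 was at 1.12 [1.06 to 1.18] and Insm1 at 0.975 [0.929 to 1.02]. Of 12 receptors for glucagon, incretins, somatostatin and the neuropeptide Y family 3 were listed (median 0.10). The glucagon receptor gene Gcgr was at 1.70 [1.28 to 2.29], the somatostatin receptor gene Sstr3 at 1.07 [0.962 to 1.19], or 0.736 relative to the median gene, and the incretin receptor gene Gipr at 0.311 [0.226 to 0.422].

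**Figure D5:**
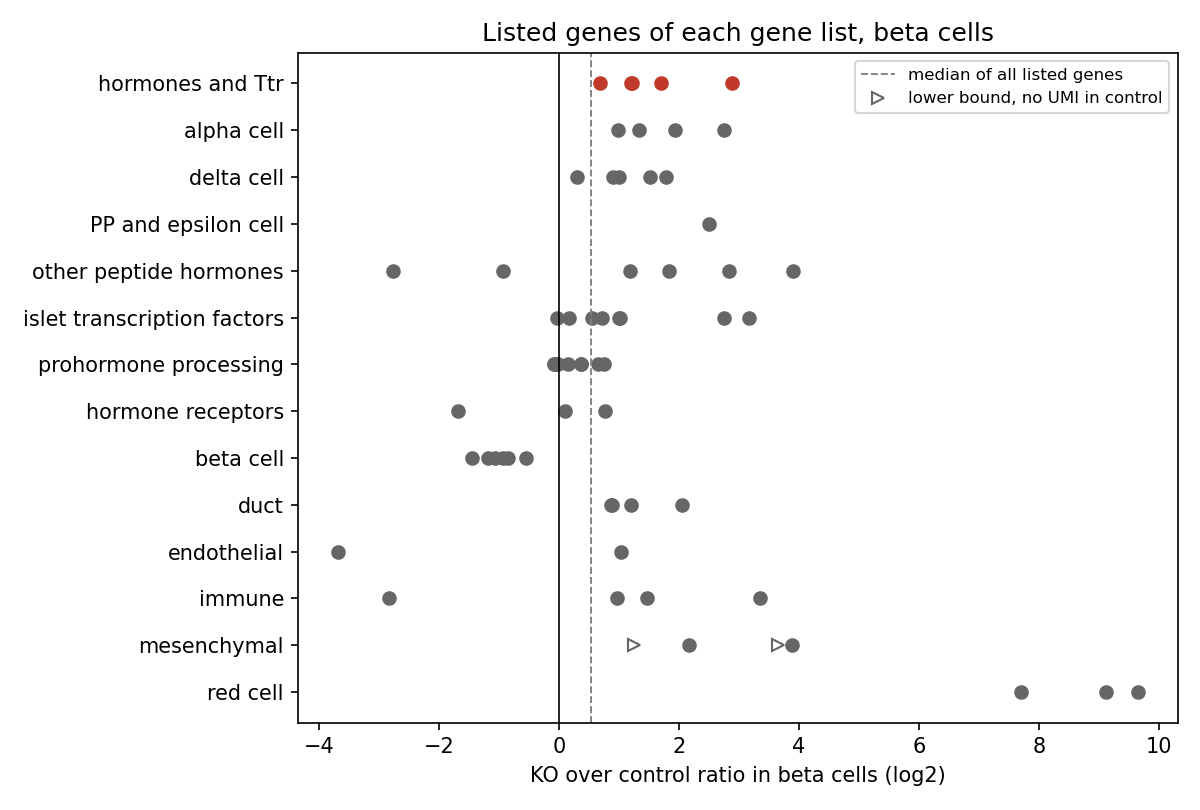
Log2 KO over control ratio in beta cells of each listed gene of the gene lists (rows); red points are the hormones and Ttr. The dashed line is the median of all listed genes, 0.54, and open triangles are lower bounds for genes with no UMI in the control. Alpha-cell, delta-cell and duct markers lie to the right of 0 and beta-cell markers to the left; 1 of the 5 delta-cell markers lies left of the dashed line.

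The genes whose pattern lay nearest to each transcript were found by the distance of log2 ratios over 3 KO columns, among genes at or above the median level. For Ttr, over beta and delta cells, they were Gm26917, Btg2 and Fos among 109 genes, at distances of 0.57, 1.05 and 1.14. The same 3 were nearest to Gcg, but at distances of 2.42, 3.18 and 3.34 among 108 genes. Ttr, under the median level in delta cells, was not among those 108, so the 3 were nearest only among genes above that level. In beta cells and each delta-cell KO column, Gcg had log2 ratios of 1.20, 3.99 and 2.67. Those of Ttr were 1.22, 2.11 and 1.35. For Sst, over beta and alpha cells, they were Id3, Rbp4 and Epcam among 88 genes, at distances of 0.77, 1.03 and 1.13. For Ppy they were Cldn4, Ctsz and Egr1, at distances of 0.85, 1.67 and 1.90; Cldn4, a tight junction gene, was at a ratio of 4.33 in beta cells and at 0.726 and 0.949 in alpha cells of the KO mice.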

How the data were processed

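Single-cell RNA of islets from 2 KO mice and 1 control mouse was analysed. The values are, per column, a signal that the authors deposited as mean UMIs per cell. The submitters' processing notes list Cell Ranger 3.0.0 and mm10. The sources used here do not give the cell filters, the treatment of doublets and free RNA, the cell type calls or the authors' test. Multiplying a column by a single integer, taken as its cell count, turned 100% of its values into integers within 0.001 (99.99% in control beta cells). The deposited p-values and q-values, the largest q being 0.0103, come from cells and only served as the authors'. The alpha table's header is shifted against its columns. KO columns were not matched to a mouse.

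Ratios carry no pseudocount, and a group at 0 was set to 3 UMIs. Recovered UMIs were tested with edgeR 4.0.16 (log cell number as offset, 1 residual degree of freedom, Benjamini-Hochberg over all listed genes), which called 0 higher and 4 lower genes in alpha cells and 28 and 22 in delta cells. DESeq2 1.42.0, TMM, the listed total as offset, other scalings, folds and level minimums, and leaving out a KO mouse were alternatives. On simulated data with 60 of 186 and 60 of 231 genes changed 8-fold, edgeR recovered 97.6% and 98.7%. Smaller changes, such as those of Sst and Ppy in alpha cells and of Ttr in delta cells, were not simulated. The simulated control had the same spread as the simulated KO columns, so the recovery does not check that assumption. The share of false calls in the simulation is not reported here. Python 3.11.15 was used. The genes and lists were chosen with earlier results of these data known. Named genes were the 5 transcripts, every listed gene of a list of 5 or fewer, otherwise the 2 highest and 2 lowest, and the 3 nearest patterns. Ins1, Iapp, Actb and Gpx3 in beta cells were added after their values were seen. The value of 1 listed delta-cell marker is not reported here. Positions are from GENCODE M21 (same build), where 8187, 185 and 230 identifiers were found, and promoters from RefSeq on GRCm38.p6, the same build.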

Additional observations from a re-analysis of the deposited data

Results flagged for a closer look

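Ppy had opposite directions in 2 cell types. The ratio of KO over control was 7.36 in beta cells and 0.777 in alpha cells, where both KO columns lay below the control. Relative to the median gene Ppy was at 5.06 in beta cells and at 0.953 in alpha cells. Of all listed genes 95.0% were higher in beta cells, and 51.1% had both KO columns below the control in alpha cells. Rbp4 had a ratio of 1.86 in beta cells, against 0.552 in alpha cells and 0.560 in delta cells. Krt8, a keratin gene, was at 2.31 in beta cells and 0.81 in alpha cells, or 0.992 relative to the median alpha-cell gene. In the second alpha-cell KO column its ratio was 0.890 [0.786 to 1.01]. Vgf, a granule protein gene, was at 1.29 in beta cells, or 0.886 relative to the median gene, and 0.55 in alpha cells. Gc was at 1.99 in beta cells and 0.445 in delta cells, and Pcsk1n at 0.947 in beta cells, or 1.20 when scaled to the listed total, and 1.47 in delta cells. In each case every KO column of 1 cell type lay on the other side of the control than in the other cell type; the difference between cell types was not tested.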

How the results depend on the processing

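The ratios of the 5 transcripts in beta cells and of Gcg and Ttr in delta cells stayed above 1 under all scalings tried. The beta-cell ratios moved past counting error under the other scalings. Relative to the median gene Gcg was at 1.58, Ttr at 1.60, Sst at 1.11, Ppy at 5.06 and Pyy at 2.23. Scaled to the listed total they were 2.93, 2.97, 2.05, 9.36 and 4.13, and without islet hormones in the total 1.94, 1.96, 1.36, 6.19 and 2.73. Ppy in alpha cells moved to 0.879 when scaled to the listed total and to 0.953 relative to the median gene. Without 1 KO mouse, Sst in alpha cells ranged from 0.327 to 1.14, Ppy in alpha cells from 0.756 to 0.799, Gcg in delta cells from 6.35 to 15.9 and Ttr in delta cells from 2.55 to 4.32; 0 to 1 of the listed hormones was lower by the fold in alpha cells. Ttr in delta cells stood under the median level of its table, which left 1 of 2 transcripts higher by the fold above that level.

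Counts of all genes past the fold depend on the fold and on the level. At a fold of 2 there were 1626 higher and 99 lower genes in beta, 5 and 22 in alpha and 46 and 15 in delta cells; at or above the median level there were 1043 and 112, 3 and 20, and 20 and 21. With at least 5 UMIs per control beta cell, a choice made after seeing the data, there were 34 and 25. Leaving out a KO mouse was also added as an alternative for the counts after seeing the data. With the listed total as offset, edgeR called 3 higher genes in alpha cells, and 82 higher and 8 lower in delta cells. With TMM it called 0 lower in alpha cells, and 11 higher and 34 lower in delta cells. DESeq2 called 1 lower in alpha cells and 7 higher in delta cells. Over these settings the adjusted p of Gcg in delta cells ranged from 2.85e-60 to 0.0186, that of Ttr from 9.87e-06 to 0.0186 and those of Sst and Ppy in alpha cells from 0.402 to 0.972, so no call of the count test on these 4 genes changed; the cause of the moves was not tested. No paired analysis was possible because the labels give the groups no shared replicate numbers and the control is 1 mouse. Of 124 alternatives, 41 moved a value and 83 did not. A ratio in alpha or delta cells counted as moved only outside the mean ± SD of the KO columns. Each KO column alone and their weighted mean always lie inside that range, so those alternatives could not count as moved.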
